A study of Cervus nippon with 40 samples.

Results

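The miR-133 family of Sika Deer was described through 3 mature miRNAs, miR-133a, miR-133b and miR-133c, which carry the names of the cattle entries bta-miR-133a, bta-miR-133b and bta-miR-133c in the tables. They were taken by name, and they are 3 of 500 miRNA names listed in the series. Small RNA was sequenced in 10 organs of male Shuangyang deer, namely heart and skeletal muscle, which consist mainly of striated muscle, and spleen, lung, liver, kidney, testes, adrenal, brain and antler. The deer were 1 year old at the juvenile stage, 3 at adolescence, 5 at the adult stage and 10 at the aged stage. RNA from 3 deer was combined in equal amounts for every library of the 40, so that 12 deer gave the whole series, no deer had a treatment in the labels, and the 10 organs of a stage came from the same 3 deer. There was 1 library for each organ and stage. The 4 libraries of an organ served as its replicates across stages, and a difference between stages cannot be told apart from a difference between 4 pools of deer. Levels are given as RPM, the reads of a miRNA for every 1000000 miRNA reads of its library. The libraries held from 41866 to 7759033 miRNA reads with a median of 744715, and the testes libraries after the juvenile stage were the shallowest (41866 to 97018 reads), so that 1 read was worth 10.3 to 23.9 RPM there and 0.129 to 0.183 RPM in skeletal muscle.

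miR-133 and miR-1 are the classical miRNAs of striated muscle, and in mammals they are made in pairs from shared precursor transcripts. miR-133a is co-transcribed with miR-1, whereas miR-133b is co-transcribed with miR-206, a miRNA of skeletal muscle. In this tissue miR-1 is known for promoting differentiation and miR-133 for its part in myoblast proliferation and in restraining the smooth muscle gene programme of the heart. The sequences of the members were not available here, so how far they share seed and bases was not checked. How reads that match several members were assigned is not given in the sources used here. The levels of miR-133b and miR-133c beside the far more abundant miR-133a are uncertain to that extent.

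The organ labels were compared with miRNAs known to mark cell types. miR-208a, encoded within a cardiac myosin gene, had 16, 14, 3 and 1 reads in the juvenile, adolescence, adult and aged heart and 0 reads in the other 36 libraries. miR-208b, its relative in a slow myosin gene, had 30 to 200 reads in heart and 5 to 20 in skeletal muscle, and 0 elsewhere. miR-206 was listed in the 4 skeletal muscle libraries only, with 15, 10, 6 and 6 reads. miR-499, of another slow myosin gene, had 3 reads in the adolescence heart and 2 in the adult heart. miR-124a, the neuronal miRNA, lay between 2446 and 57640 RPM in brain and at 358 RPM or below elsewhere. These markers of heart, skeletal muscle and brain followed the labels, although those of heart and skeletal muscle rested on few reads. Markers of the other organs were not part of this check. By the profile of all 124 known miRNAs tested, 37 of 40 libraries correlated best with another library of the same organ. The adolescence lung and the aged spleen correlated best with each other (r = 0.950, a description), and the juvenile testes with the juvenile adrenal (r = 0.921). The model comparisons and the counts across stages were also computed without these 3 libraries.

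miR-133a was the most abundant member in 40 of 40 libraries. In heart it had 83958, 29225, 184634 and 252493 RPM at the juvenile, adolescence, adult and aged stages. In skeletal muscle it had 8908, 23850, 19293 and 27228 RPM in the same order. All heart libraries lay above all skeletal muscle libraries on this scale, and the lowest of skeletal muscle lay above the highest of the other organs, the aged testes with 7142 RPM. Spleen came next with 3388, 5049, 5650 and 1839 RPM. Liver had 911 to 2962 RPM, kidney 261 to 1123 RPM, brain 193 to 1709 RPM and lung 253 to 655 RPM. Adrenal, with 128 to 851 RPM, and antler, with 90.0 to 434 RPM, were the lowest by mean log2(RPM + 1), whereas lung had the lowest median (260 RPM). Testes had the widest range as a fold, with 80.3 RPM in the juvenile library (43 reads) and 1969 to 7142 RPM in the other 3. Heart and skeletal muscle held 60.9% and 37.2% of all 1314340 reads of miR-133a, spleen held 1.01%, and the 8 organs without striated muscle held 1.89%. These are shares of pooled reads and follow the depth of the libraries, which was greatest in skeletal muscle. Mean RPM, which does not depend on depth in this way, was 137578 in heart, 19819 in skeletal muscle and 1425 over the libraries of the other 8 organs.

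**Figure D1:**
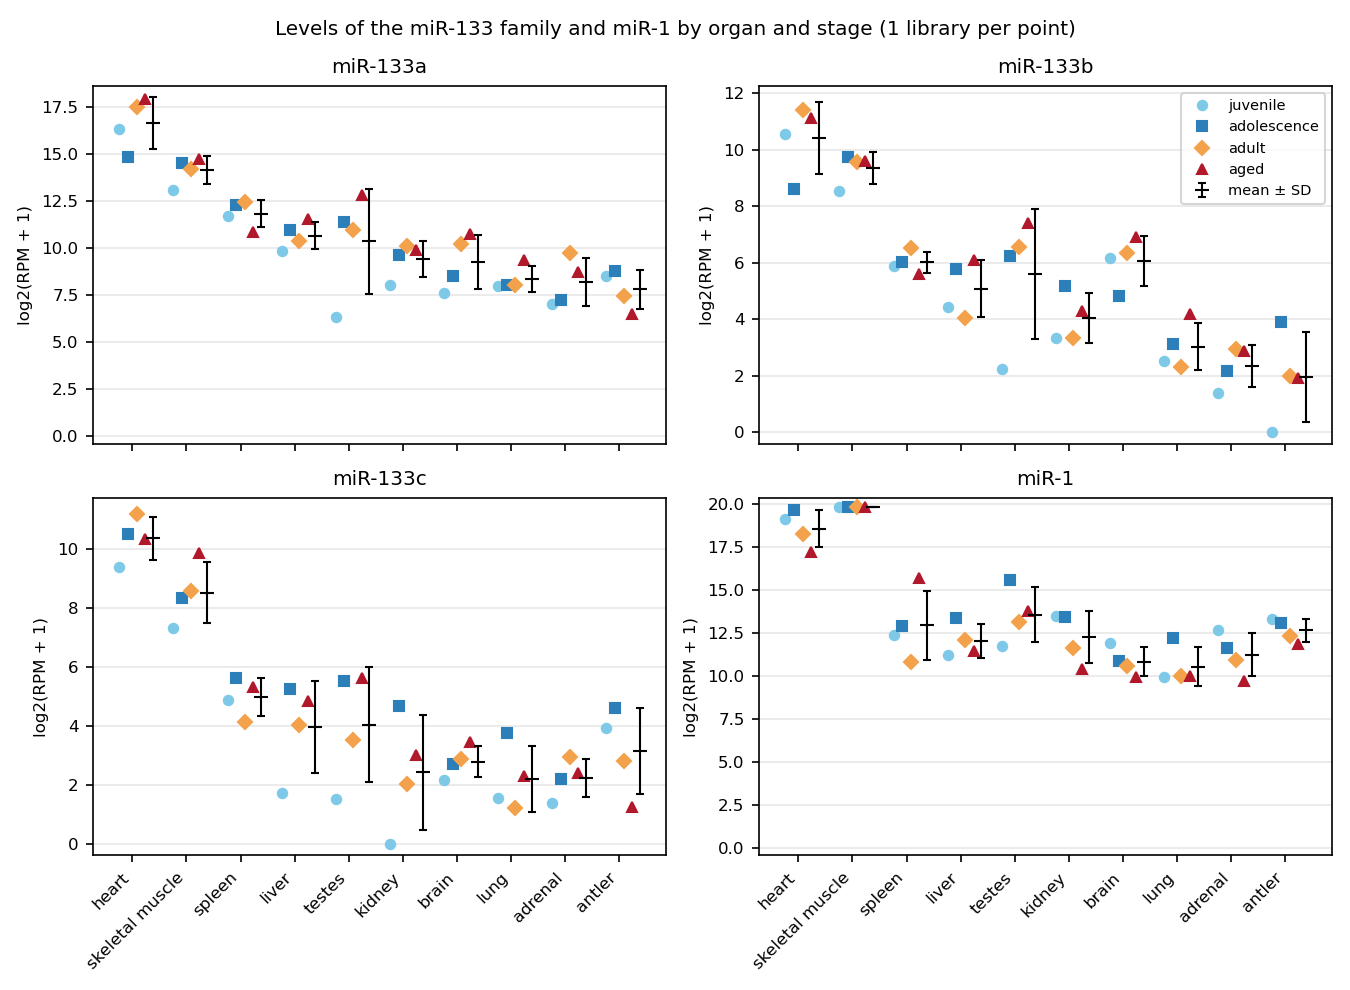
Levels of miR-133a, miR-133b, miR-133c and miR-1 as log2(RPM + 1), with organs in the order of their mean miR-133a. Each coloured point is 1 library of 1 stage, and the black bar is the mean with the SD of the 4 libraries of an organ. Heart and skeletal muscle stand above the other 8 organs in all 4 panels, and miR-133a of the juvenile testes (80.3 RPM) lies below the later testes libraries.

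The order of the organs by mean log2(RPM + 1) of miR-133a was heart, skeletal muscle, spleen, liver, testes, kidney, brain, lung, adrenal and antler. The 9 neighbouring pairs in this order were compared by an exact two-sided permutation test, for which 4 against 4 libraries allow no p below 0.0286. Heart and skeletal muscle differed by 2.50 and skeletal muscle and spleen by 2.32 on the log2 scale, with ranges that did not overlap and the smallest possible p of 0.0286, or 0.129 after Benjamini-Hochberg adjustment over 9 pairs. The other 7 pairs had overlapping ranges and differences of 0.16 to 1.16, and their adjusted p-values lay between 0.257 and 0.914. No neighbouring pair thus passed 0.05 after adjustment, and below spleen the order of neighbours was not resolved by 4 libraries an organ.

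miR-133b, the member that lies beside miR-206 in the genome of mammals, followed the same broad distribution at a lower level. It had 1500, 386, 2684 and 2216 RPM in heart and 368, 864, 759 and 785 RPM in skeletal muscle, so that the 2 organs overlapped. Brain had 70.7, 27.1, 80.1 and 118 RPM of miR-133b and lay in place 3 of the order, before spleen with 47.9 to 90.5 RPM. Lung had 3.91 to 17.3 RPM and adrenal 1.60 to 6.69 RPM, which came from 3 to 18 and from 1 to 6 reads. In the juvenile antler miR-133b had 0 of 214726 reads, which allows up to 13.97 RPM, counting 3 reads as the limit.

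miR-133c, the rarest member in the sum over all libraries, had 667, 1440, 2295 and 1296 RPM in heart and 158, 323, 375 and 915 RPM in skeletal muscle. The aged skeletal muscle thus lay within the range of heart. Spleen was the next with 16.6 to 48.3 RPM, and the other 7 organs had 0 to 47.8 RPM. In the juvenile kidney miR-133c had 0 of 329441 reads, which allows up to 9.11 RPM. Outside striated muscle at least 10 reads were found in 32 of 32 libraries for miR-133a, in 13 for miR-133b and in 6 for miR-133c, and the levels of the last 2 in these organs have wide counting errors. Over all libraries miR-133a made up 96.3% of the 1364409 reads of the family, miR-133b 2.11% and miR-133c 1.56%. These shares of pooled reads come mostly from heart and skeletal muscle. The family as a whole made up 10.9% of the miRNA reads of heart, 2.01% of skeletal muscle, 0.443% of spleen and 0.0204% of antler.

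Heart and skeletal muscle were compared with the other 8 organs in limma, with organ and stage in the model and TMM scaling. All 3 members were higher in striated muscle and passed the limits of the study, an adjusted p below 0.01 and a log2 difference beyond 1. miR-133a was higher by 9.31 ± 0.37 (SE, limma adjusted p = 1.68e-22), miR-133b by 8.93 ± 0.38 (limma adjusted p = 1.20e-21) and miR-133c by 9.46 ± 0.36 (limma adjusted p = 8.30e-23). Of the 124 miRNAs tested 18.5% were higher in striated muscle by these limits, 16.9% were lower and 35.5% differed in either direction. Only miR-1, with 10.57 ± 0.45, had a larger difference among all 124 than the 3 members. Their direction and their side of the limits did not depend on the scaling, and on total reads the differences were 5.92, 5.62 and 6.21. All 8 striated libraries lay above all 32 others in RPM for 5 of 124 miRNAs (4.03%), which were the 3 members, miR-1 and miR-208b, and for 8.06% after TMM scaling.

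Of the other miRNAs of muscle, miR-486, a miRNA of muscle and of red blood cells, was higher in striated muscle by 4.17 ± 0.25 and passed the limits, a call that ended per total reads (0.78, limma adjusted p = 0.0168). miR-208b had 0 reads in the 32 other libraries and met the minimum of reads through heart and skeletal muscle alone, so that its difference is no test. Before TMM scaling miR-486 had 22680, 2936, 39211 and 40670 RPM in heart from juvenile to aged, but only 1083 to 1608 RPM in skeletal muscle, below the 5711 to 12027 RPM of brain. miR-451, the defining miRNA of red blood cells, had 0 to 2 reads in every library. miR-145, a miRNA of smooth muscle, did not pass after TMM scaling (-0.04 ± 0.22, limma adjusted p = 0.884), but was lower in striated muscle per total reads (-3.43, limma adjusted p = 1.72e-15) and per total reads without miR-1 (-1.07, limma adjusted p = 1.00e-04). miR-206, miR-208a, miR-499 and the smooth muscle miRNA miR-143 had too few reads to be tested. Of the 6 miRNAs of the muscle list, miR-1 under each scaling and miR-486 under each but total reads thus passed as higher, and the other 4 allowed no test.

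Heart and skeletal muscle were then compared with each other. After TMM scaling miR-133b was lower in heart by 2.50 on the log2 scale (-2.50 ± 0.68, limma adjusted p = 0.00517) and passed the limits, as did 16.1% of the 124 miRNAs, with 3.23% higher in heart and 19.4% in either direction. miR-133a (-1.04 ± 0.66, limma adjusted p = 0.236) and miR-133c (-1.71 ± 0.64, limma adjusted p = 0.0380) did not pass. miR-1 was lower in heart as well (-4.79 ± 0.81, limma adjusted p = 1.98e-05), but did not pass per total reads (-1.25, limma adjusted p = 0.158). Per total reads the sign was the opposite for all 3 members. miR-133a was then higher in heart by 2.50 (limma adjusted p = 0.00560), miR-133b by 1.05 and miR-133c by 1.83, and only the first passed. The median of all 124 miRNAs itself moved by 2.54 between the 2 scalings. The libraries of skeletal muscle held 91.1 to 92.9% miR-1, those of heart 57.8, 81.5, 31.6 and 15.1%, and which organ has more miR-133 per cell cannot be read from these data. The call of miR-133b also ended with the DESeq2 size factors (-1.93, limma adjusted p = 0.0204), with total reads without miR-1 (-1.47, limma adjusted p = 0.116) and without any of the 4 stages.

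**Figure D2:**
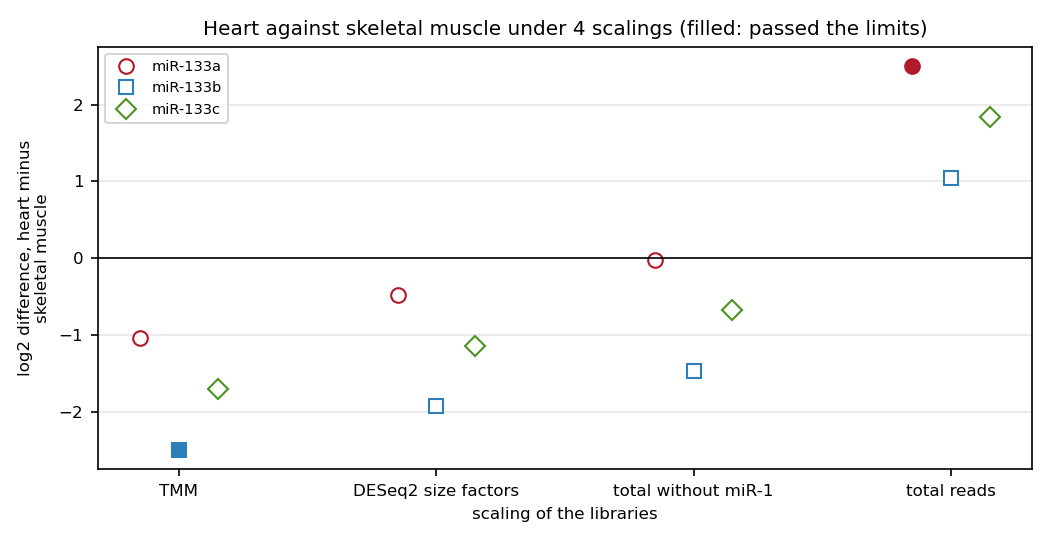
Difference between heart and skeletal muscle in log2 units for the 3 members under 4 ways of scaling the libraries. Filled symbols passed the limits of adjusted p and size, and open symbols did not. All 3 members lie below 0 after TMM scaling and above 0 per total reads, and miR-133b stays below miR-133c and miR-133a under each scaling.

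The ratio of 2 members within a library does not depend on scaling. In skeletal muscle there were 4.13, 3.62, 3.93 and 2.88 reads of miR-133b for 100 reads of miR-133a from juvenile to aged. In heart there were 1.79, 1.32, 1.45 and 0.878. All skeletal muscle libraries lay above all heart libraries, and in both organs the aged library had the lowest ratio. The mean log2 ratio was -4.79 ± 0.23 (SD, n = 4) in skeletal muscle and -6.25 ± 0.43 (SD, n = 4) in heart, so that the ratio was 2.74-fold higher in skeletal muscle (exact permutation p = 0.0286, adjusted over 4 ratios 0.0381, two-sided). As pairs of the same stage it was higher in skeletal muscle in 4 of 4, for which the exact sign-flip p is 0.125, the smallest that 4 pairs allow. The call was also lost without any 1 of the 4 skeletal muscle libraries (exact permutation, adjusted p of 0.0571 to 0.0762). The size of the difference changed little, since with 1 library left out heart against skeletal muscle lay between -1.60 and -1.26 in log2 units. A test on fewer libraries also has fewer possible arrangements. Counting error was small beside these differences, since the 95% binomial interval (exact Clopper-Pearson) was 2.80 to 2.97 for the aged skeletal muscle and 1.73 to 1.84 for the juvenile heart.

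The ratio of miR-133c to miR-133a showed no such separation. It was 1.77, 1.36, 1.94 and 3.36 reads for 100 in skeletal muscle and 0.795, 4.93, 1.24 and 0.513 in heart. The adolescence heart was the highest of all 8, and the other 3 heart libraries lay below all of skeletal muscle. The mean log2 difference of -0.66 ± 0.76 (SE) between heart and skeletal muscle did not pass (exact permutation p = 0.429, two-sided). In the adolescence heart miR-133c outnumbered miR-133b by 3.74 to 1, with 3687 reads against 987. miR-133b was the more abundant of the 2 in 30 libraries, miR-133c in 6, and they had equal reads in 4, of which 3 were adrenal libraries with 1 to 4 reads each.

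Brain differed from the other organs in its share of miR-133b. For 100 reads of miR-133a it had 36.6 reads of miR-133b in the juvenile library (95% interval 28.1 to 47.3), and 7.46, 6.81 and 6.92 at the later stages. Outside brain the ratio lay between 0 and 4.71 in the 36 libraries, so that all 4 brain libraries were above every other library in the values themselves. The counting intervals of the 3 later ones overlap with others, such as 3.50 to 14.2 for the 10 reads of the adolescence brain and 2.12 to 9.13 for the adult testes, and brain was not tested against the other organs. The 4 organ means of log2 ratio nearest below were those of testes (-4.70), skeletal muscle (-4.79), kidney (-5.35) and lung (-5.40), against -3.21 in brain. The juvenile brain had 82 reads of miR-133b beside 224 of miR-133a, and its high ratio came with the lowest miR-133a of the 4 brain libraries (193 RPM) and an unremarkable miR-133b (70.7 RPM). The ratio of miR-133c to miR-133a in brain, at 0.532 to 1.79, stood within the range of the other organs. miR-206, the neighbour of miR-133b, had 0 reads in the 4 brain libraries of 368429 to 1159823 reads.

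**Figure D3:**
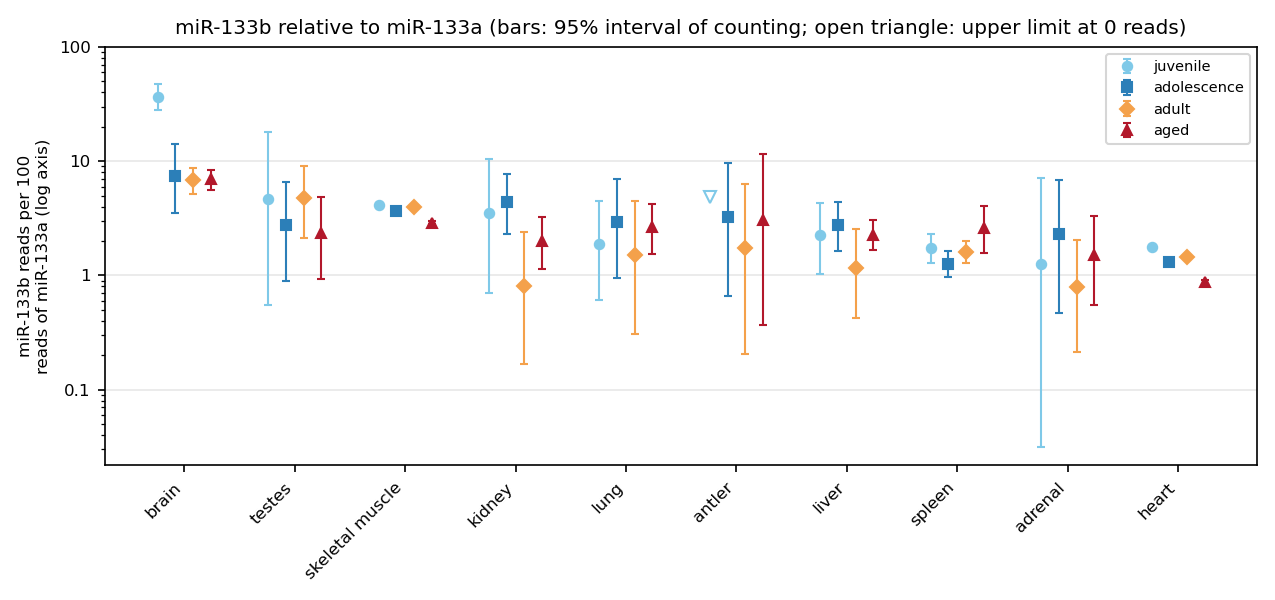
Reads of miR-133b for 100 reads of miR-133a in each library, on a log axis, with organs ordered by their mean log2 ratio and bars giving the 95% interval of counting. The open triangle is the upper limit for the juvenile antler, which had 0 reads. The 4 brain libraries are the highest, led by the juvenile library at 36.6, and the 4 skeletal muscle libraries lie above the 4 heart libraries.

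miR-206 and miR-133b could be set side by side only in skeletal muscle, where miR-133b had 190, 471, 822 and 788 reads for each read of miR-206. In heart miR-206 had 0 reads at 987 to 4082 reads of miR-133b, and against a limit of 3 reads in each library the ratio was at least 1291, 329, 1361 and 669. The bounds of the adolescence and aged heart lay within the range of skeletal muscle, and those of the juvenile and adult heart lay above all its values. With 0.5 reads added to both counts the heart ratio was higher by 3.36 on the log2 scale (exact permutation p = 0.0286, adjusted over 4 ratios 0.0381, and 0.125 as pairs), which rests on the added reads. By the interval of counting the juvenile heart ratio was at least 1050, above the 115 to 340 of the juvenile skeletal muscle. The lower limits of the adolescence, adult and aged heart were 267, 1106 and 543. They fell within the skeletal muscle intervals of the same stages (256 to 984, 377 to 2240 and 362 to 2149). Among pairs of the same stage a difference beyond counting error was thus seen in the juvenile pair alone.

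The relation of miR-133a to miR-1 differed between the 2 striated organs. In skeletal muscle miR-1 held 91.1 to 92.9% of the reads, and there were 0.00969, 0.0260, 0.0208 and 0.0299 reads of miR-133a for each read of miR-1. In heart the ratio was 0.145, 0.0359, 0.584 and 1.67 from juvenile to aged, and each heart library exceeded each skeletal muscle library. The mean log2 ratio was higher in heart by 3.75 ± 1.26 (SE), a 13.4-fold difference (exact permutation p = 0.0286, adjusted over 4 ratios 0.0381, two-sided), and it was higher in heart in 4 of 4 pairs of the same stage, by 0.46 to 5.80. As pairs the exact sign-flip p is 0.125, again the smallest that 4 pairs allow. With 1 library left out the log2 difference lay between 2.87 (without the aged heart) and 4.71 (without the adolescence heart), and the call was lost without any 1 of the 4 skeletal muscle libraries (exact permutation, adjusted p = 0.0762). In the aged heart miR-133a outnumbered miR-1, with 228546 reads against 136941. The heart libraries spanned 2.41 (SD of log2 ratio, n = 4) and those of skeletal muscle 0.72. Heart and skeletal muscle formed separate groups of 4 libraries in miR-133a and miR-1, and no pooled correlation is given for the 8 libraries, whose sign was negative in RPM and positive after TMM scaling.

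Within heart the stages with more miR-133a per total reads were those with less miR-1. The adolescence heart had the most miR-1 (81.5% of reads) and the least miR-133a (2.92%), and the aged heart the least miR-1 (15.1%) and the most miR-133a (25.2%). After TMM scaling miR-133a of heart lay at 17.56, 17.56, 17.34 and 17.93 in log2 units, a span far below that of miR-1 at 20.34, 22.37, 18.12 and 17.19. In skeletal muscle the scaled miR-133a had 17.29 in the juvenile library and 18.48 to 19.46 in the later ones, and the heart values lay within this range.

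**Figure D4:**
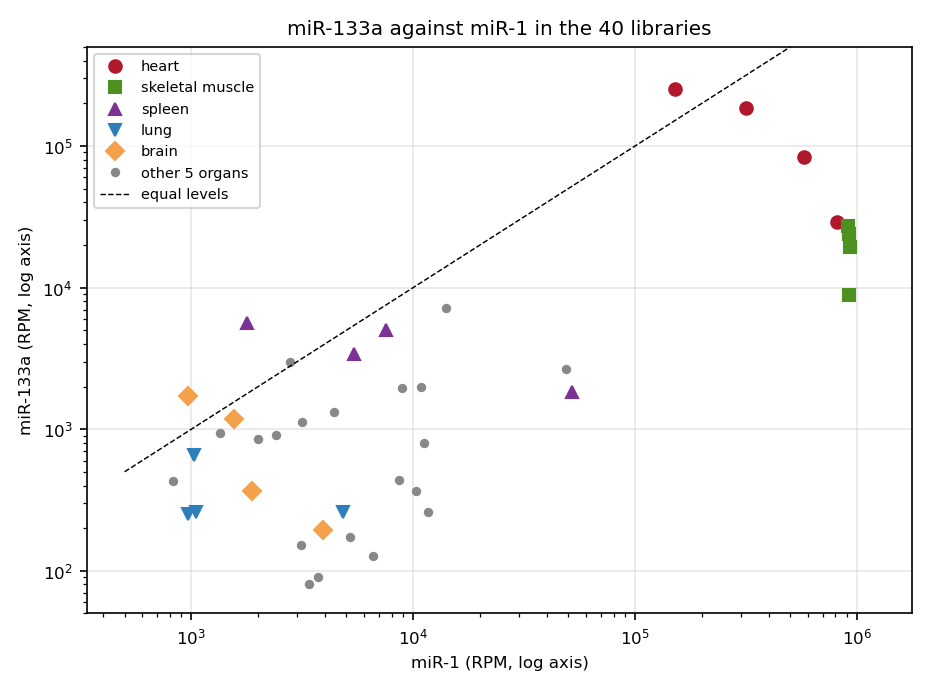
miR-133a against miR-1 in the 40 libraries, both in RPM on log axes, with the dashed line marking equal levels. Skeletal muscle stands at the right with 8908 to 27228 RPM of miR-133a, heart runs upward as miR-1 decreases, and 4 libraries lie above the line, namely 1 each of heart, brain, liver and spleen.

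Outside striated muscle miR-1 had 825 to 52057 RPM, and miR-133a was not tied to it closely. Over the 32 libraries of the 8 organs Pearson's r between the log2(RPM + 1) of both was 0.231 and Spearman's rho 0.198, and r was 0.110 without the 2 libraries farthest from the median of miR-1, the adolescence testes and the aged spleen. After TMM scaling r was 0.0902. These values are descriptions over libraries that share deer and depth. The ratio of miR-133a to miR-1 had a median of 0.235 in these libraries, from 0.0193 in the juvenile adrenal to 3.17 in the adult spleen. miR-133a exceeded miR-1 in 4 of 40 libraries, the aged heart, the aged brain (1.76), the aged liver (1.06) and the adult spleen.

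Spleen and lung were taken as the organs rich in smooth muscle, which lies in the capsule, trabeculae and vessels of the spleen and around the airways and vessels of the lung. They were compared with the other 6 organs without striated muscle. miR-133a was higher by 1.35 ± 0.38 (SE, limma adjusted p = 0.00709) and passed the limits, while miR-133b (0.79 ± 0.39, limma adjusted p = 0.116), miR-133c (0.87 ± 0.37, limma adjusted p = 0.0622) and miR-1 (0.19 ± 0.47, limma adjusted p = 0.777) did not. In this comparison 10.5% of the 124 miRNAs were higher, 8.87% lower and 19.4% in either direction. miR-145 was higher by 1.75 ± 0.23 (limma adjusted p = 3.33e-07) and miR-486 by 1.25 ± 0.26 (limma adjusted p = 5.04e-04), of which the second passed under TMM scaling only, with 0.71 to 0.93 under the 3 other scalings. Of the miRNAs of lymphoid and myeloid cells, miR-150 was higher by 2.56 ± 0.50 (limma adjusted p = 2.62e-04) and passed under each of the 4 scalings, miR-142-5p did not pass (2.13 ± 0.73, limma adjusted p = 0.0211), and miR-142-3p had too few reads to be tested. The part of these cells in the difference of miR-133a was not tested. The difference of miR-133a rested on spleen. With spleen alone against the 6 organs it was 2.64 (limma adjusted p = 4.41e-04), and with lung alone it was -0.18 (limma adjusted p = 0.783). It was 1.36 without the adolescence lung, the aged spleen and the juvenile testes (limma adjusted p = 5.54e-04). The call held in 4 of 11 alternatives, and it ended under each of the 3 other scalings, with 0.81 per total reads (limma adjusted p = 0.146). It was also lost in 3 of 4 when a stage was left out, with 0.78 without juvenile (limma adjusted p = 0.130), 1.31 without adolescence (limma adjusted p = 0.0457) and 1.33 without adult (limma adjusted p = 0.0391).

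Spleen also had the highest miR-145 of all organs, with 126647 to 198873 RPM, above the testes with 34144 to 105877 RPM. miR-143, which is made beside miR-145, had 8, 30, 35 and 31 reads in spleen and at most 7 reads in any library of another organ. Lung, by contrast, had 21866 to 32894 RPM of miR-145, which lay within the range of adrenal and below all libraries of kidney, liver and testes, and 0 to 4 reads of miR-143. On this scale lung thus lay below 3 of the 6 organs that it was compared with, and above antler alone without overlap. After TMM scaling, which the comparison used, the order differed. Mean log2 miR-145 was then 14.78 in lung, below spleen (16.73) and above testes (14.49), liver (14.44), kidney (14.25), adrenal (13.98), antler (13.81) and brain (13.03). In spleen the ratio of miR-133a to miR-1 was 0.625, 0.668, 3.17 and 0.0353. The aged spleen stood apart with 52057 RPM of miR-1, against 1782 to 7564 RPM at the other stages, and with 1839 RPM of miR-133a, the lowest of the 4. It also had 2849 RPM of miR-142-5p, a miRNA of blood cell lineages, against 6.62 to 104 RPM in the other spleen libraries, and 31.1 RPM of miR-150, a lymphocyte miRNA, against 256 to 325 RPM. The part of these differences in cell makeup in the result was not tested, and in bulk tissue fewer cells of a type cannot be told apart from less of a miRNA per cell. In lung the ratio was 0.261, 0.0540, 0.249 and 0.636, and its lowest value, in the adolescence lung, came with 4815 RPM of miR-1 against 969 to 1047 RPM in the other lung libraries.

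Across stages the mean log2 ratio of miR-133a to miR-1 in the adult and aged libraries exceeded that in the juvenile and adolescence libraries in 8 of 10 organs. Both older libraries lay above both younger ones in 5 organs (adrenal, brain, heart, kidney and testes) and below them in 1, antler. Over the ratios of all other tested miRNAs to miR-1 this held for 39.8% of pairs of miRNA and organ above and 6.99% below, so that the count of 5 in 10 is near the background. In these organs the older ratio was 15.3-fold (adrenal), 11.7-fold (brain), 13.7-fold (heart), 12.4-fold (kidney) and 9.25-fold (testes) that of the younger stages. The ratios of testes were 0.0237, 0.0551, 0.221 and 0.510, and without the juvenile library, which correlated best with adrenal, the older ratio was 6.09-fold that of adolescence. Without the 3 libraries nearest to another organ the older libraries lay above the younger ones in 6 organs, spleen being added with its adult library alone, where the share over all pairs was 54.1% above and 11.5% below. In spleen, lung and testes this compares 1 library with 2. Brain is an example of the course over the 4 stages, with 0.0494, 0.195, 0.753 and 1.76 reads of miR-133a for each read of miR-1. Antler went the other way, with 0.0354, 0.0501, 0.0331 and 0.0242, and in spleen the 4 values overlapped. The ratio was highest in the aged library in 8 of 10 organs, a count for which no share over the other miRNAs is given. There was 1 pool of deer for each stage, and the same pools gave all 10 organs, so the organs are not independent of each other here.

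**Figure D5:**
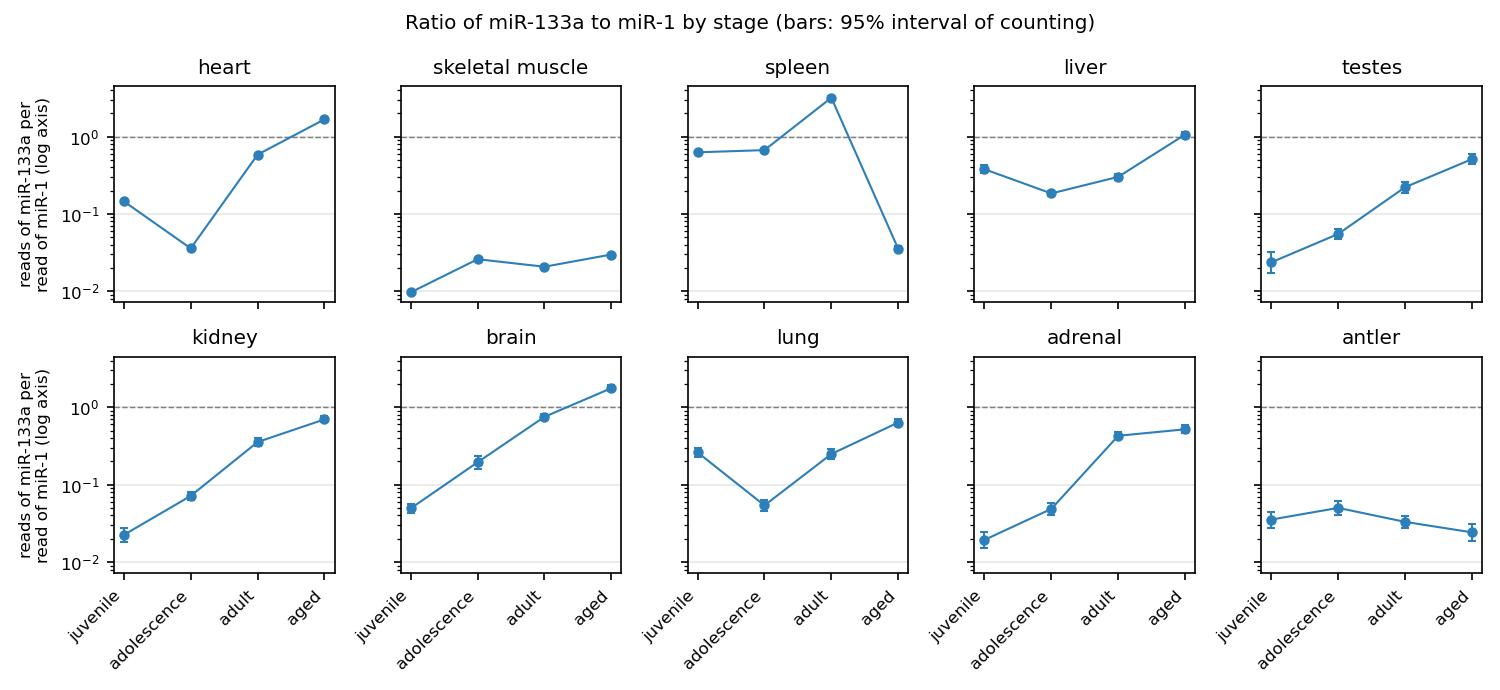
Reads of miR-133a for each read of miR-1 at the 4 stages in each organ, on a log axis common to all panels, with bars for the 95% interval of counting and a dashed line at equal reads. The ratio is highest in the aged library in 8 of 10 organs, while spleen has its lowest value there (0.0353) and antler stays between 0.0242 and 0.0501. No share over the other miRNAs is given for the count of 8.

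The 2 terms of this ratio were also taken apart. In RPM, both older libraries of miR-133a lay above both younger ones in 5 of 10 organs (adrenal, brain, heart, kidney and lung) and below them in 1, antler, where the share over all pairs of miRNA and organ was 23.3% above and 22.4% below. After TMM scaling heart and lung overlapped and testes separated, which left 4 organs above and antler below, against 16.3% and 25.4% over all pairs. Without the 3 libraries nearest to another organ, the count in RPM was 6 above, with spleen added, and 1 below, against 26.5% and 30.5% over all pairs, again with 1 library against 2 in spleen, lung and testes. For miR-1 both older libraries lay below both younger ones in 5 organs (adrenal, antler, brain, heart and kidney) and above them in 0, on both scales. Without the 3 libraries it was 7 below, with spleen and testes added, and 1 above, lung. The ratio of miR-133c to miR-133a was lower in both older libraries than in both younger ones in 5 organs and higher in 1, against 36.8% below and 7.72% above over the ratios of all other miRNAs to miR-133a, and it rested on 1 to 9 reads of miR-133c a library in those 5 organs. Over the 10 organs in limma, however, the older stages did not pass the limits for any member. The difference was 0.79 ± 0.30 for miR-133a (SE, limma adjusted p = 0.0462), 0.41 ± 0.30 for miR-133b (limma adjusted p = 0.343) and -0.09 ± 0.29 for miR-133c (limma adjusted p = 0.838). It was -1.22 ± 0.36 for miR-1 (limma adjusted p = 0.0128). Of the 124 miRNAs 2.42% were higher and 5.65% lower at the older stages, 8.06% in all.

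In the comparison of the 4 stages with each other miR-133c was the only member with an adjusted p below 0.01 (limma F test, adjusted p = 0.00607), a limit that 4.84% of the 124 miRNAs passed. Its stage means over 10 organs after TMM scaling were 3.64, 5.59, 4.32 and 4.72 in log2 units from juvenile to aged, a range of 1.95 with the highest mean in adolescence. miR-133c had its highest RPM in adolescence in 5 of 10 organs and in juvenile libraries in 0. No share over the other miRNAs is given for these counts, and the 10 organs of a stage came from the same pool of deer. Most of these levels come from few reads, such as 2, 8, 1 and 4 in lung and 0, 9, 1 and 6 in kidney. The call held in 1 of 6 alternatives, with DESeq2 size factors, and ended in the others, such as per total reads (limma adjusted p = 0.0299), with a pseudocount of 10 (range 1.05, limma adjusted p = 0.0264) and without the 3 libraries nearest to another organ (limma adjusted p = 0.0178). It was also lost in 3 of 4 when a stage was left out, without juvenile (range 1.02, limma adjusted p = 0.286), adolescence (range 1.17, limma adjusted p = 0.0888) or adult (range 1.86, limma adjusted p = 0.0241). miR-133a (limma adjusted p = 0.0322) and miR-133b (limma adjusted p = 0.0966) did not pass. The stage means of miR-133a were 9.68, 10.88, 10.99 and 11.15, with the lowest in the juvenile pools.

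Steps between adjacent stages were counted by the rule of the study, as up or down at 2-fold in RPM. Of 30 steps miR-133a went up in 10, down in 3 and neither in 17, while over all tested miRNAs 20.3% of steps were up and 23.4% down. The downward steps were those from juvenile to adolescence in heart, from adolescence to adult in antler and from adult to aged in spleen. The largest step was from the juvenile to the adolescence testes, from 43 of 535668 to 180 of 67231 reads (33.4-fold, 95% interval of counting 23.8 to 47.7). Without the 4 steps that use 1 of the 3 libraries nearest to another organ, which include this one and the downward step of spleen, 9 of 26 steps were up and 2 down, and the largest was that of heart from adolescence to adult, 6.32-fold. These are values of single libraries, and the intervals cover counting error only.

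The miRNAs whose level was most like that of miR-133a were listed by Pearson's r of log2(RPM + 1), given as a description with no test. Over 40 libraries they were miR-133b (0.926), miR-133c (0.924), miR-208b (0.760), miR-1 (0.750) and miR-378 (0.580). Over the 32 libraries outside heart and skeletal muscle they were miR-133b (0.794), miR-133c (0.758), miR-145 (0.653), miR-150 (0.644) and miR-2889 (0.644), and miR-1 stood at place 48 of 123 with 0.231. After TMM scaling the same 5 names led both lists. With the mean of each organ also removed, the first was miR-133b (0.727) and miR-133c the fifth (0.586). There miR-1 stood at place 67 (-0.096) and miR-208b at place 46 (0.089). The points share libraries, deer and depth.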

How the data were processed

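The authors pooled RNA of 3 deer, collected small RNAs, removed other RNA classes, matched reads to miRBase and predicted further miRNAs with miRDeep. The labels name bcl2fastq 1.8.4 and Bowtie and an NEBNext kit, the methods a TruSeq kit. The deposited files, 1 per library, give RPM (headed tpm) scaled by the authors to 1000000 miRNA reads, and omit miRNAs with 0 reads. Whole reads were recovered from the steps of these values (7982 of 7982 within 0.01 of a whole number). In the adolescence and adult skeletal muscle and the aged testes few low values bear on this, and reads and depth there rest on taking the smallest value, shared by 34, 20 and 31 miRNAs, as 1 read. Depth was 41866 to 7759033 reads.

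The 124 known miRNAs that reached 10 reads in 4 or more libraries were scaled by TMM (edgeR 4.0.16) and their log2(RPM + 1) fitted in limma 3.58.1 under R 4.3.3, with organ and stage as terms and Benjamini-Hochberg adjustment over all 124. Fold changes are on this log scale, which understates changes of low miRNAs. A miRNA was called at an adjusted p below 0.01 and a log2 difference beyond 1. Stage numbers mark the same 3-deer pools, so the stage term pairs the organs. The fits were also run on simulated data, in which all libraries shared 1 mean profile apart from planted changes. The most abundant miRNAs were kept unchanged there, so the uneven share of miR-1 between organs was not simulated. A miRNA listed in antler alone as miR-148c was counted as miR-2957, listed in the other organs only. Ratios had 0.5 reads added for tests. Nothing says that libraries of an organ are replicates beyond their different pools. In limma p-values measure the spread of libraries left after the organ and stage terms. In the exact permutation tests they rest on the spread of the libraries of an organ across stages. Where groups of organs were compared, the limma p-values do not measure the spread between the organs of a group.

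Named were the 3 members, miR-1, lists of muscle and smooth muscle miRNAs, and the 5 miRNAs most like miR-133a. Members and lists were chosen with earlier results of these data known. Alternatives covered scaling, edgeR and DESeq2 1.42.0 on the recovered reads, the pseudocount, the minimum of reads and left-out libraries. Supplementary comparisons, numbered miRNAs and sequences were not used here, and miR-122, miR-223, miR-144, miR-9-5p, miR-126-5p and miR-124b were not analysed here.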

Additional observations from a re-analysis of the deposited data

Results flagged for a closer look

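In groups of 4 libraries of an organ, 70 groups were searched for a library far from the other 3, of which chance gives about 1 in 20, or 3.5, and 4 were found. miR-133a of the aged lung lay at 9.36 in log2(RPM + 1), or 655 RPM, with the other lung libraries at 253 to 261 RPM. miR-133b of the juvenile skeletal muscle lay at 8.53, below 9.57 to 9.76 at the later stages. The log2 ratio of miR-133b to miR-133a in the juvenile brain was -1.44, against -3.68 to -3.87 later. miR-1 of the adolescence lung, the library nearest to the aged spleen, lay at 12.23, against 9.92 to 10.03 in the others.

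Organs whose stages moved in opposite directions were also noted, and the difference between the organs was not tested in any of these cases, since each rests on 4 libraries an organ. In RPM both older libraries of miR-133a in antler lay below both younger ones (-1.67 in log2 units), whereas both lay above in adrenal, brain, heart, kidney and lung, of which heart and lung overlapped after TMM scaling. miR-133c of antler likewise had -2.23 with 1 to 5 reads a library, while adrenal, brain and skeletal muscle went the other way. The ratio of miR-133a to miR-1 in antler had -0.57, against a higher older ratio in adrenal, brain, heart, kidney and testes. The ratio of miR-133c to miR-133a in skeletal muscle was higher at the older stages by 0.72, while both older libraries were below both younger ones in adrenal, antler, brain, lung and testes, with 1 to 9 reads of miR-133c a library there.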

How the results depend on the processing

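For 41 results 313 alternative values were computed, of which 237 kept direction and side of the limits or, for counts, stayed within 1.5 times. The calls of the 3 members in striated muscle held under all alternatives run. Why the others moved was not tested. Scaling by total reads reversed heart against skeletal muscle for miR-133a (2.50), miR-133b (1.05) and miR-133c (1.83), and shifted the median of all miRNAs by 2.54 there, by -2.41 in striated muscle, by -0.39 in lung and spleen and by 0.24 at the older stages. For miR-133b of heart the call ended with total reads without miR-1 (-1.47), DESeq2 size factors (-1.93), no minimum of reads (-2.50), no replicate block (-2.50) and without the 3 libraries nearest to another organ (-1.85), an alternative chosen after seeing the data, like those without lung or spleen, those of the stage test, those of miR-1 and the marker miRNAs and those of the counts over organs and steps. miR-133c passed with a pseudocount of 10 (-1.70). In lung and spleen the call of miR-133a ended with total reads (0.81), total reads without miR-1 (0.81), DESeq2 size factors (1.02), DESeq2 (0.87), no minimum (1.35) and no replicate block (1.35). Without spleen all 3 members reversed (-0.18, -0.48 and -0.29), and without lung miR-133c passed (1.84). The older stages reversed for miR-133c, never called, with total reads (0.23), total reads without miR-1 (0.067) and without heart and skeletal muscle (0.059). The stage test of miR-133c ended with total reads (range 1.93), total reads without miR-1 (1.95), a pseudocount of 10 (1.05), no minimum (1.95) and without the 3 libraries (1.62), where miR-133a passed (1.28). Among values that did not pass, miR-1 in lung and spleen reversed with total reads (-0.35), total reads without miR-1 (-0.35) and DESeq2 size factors (-0.13), and miR-486 at the older stages with the first 2 (0.18 and 0.035). As pairs of the same stage (replicate block) the log2 ratios of miR-133a to miR-1 (3.75), miR-133b to miR-133a (-1.45) and miR-133b to miR-206 (3.36) could not reach 0.05.

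Leaving out 1 stage or library at a time, the striated differences of the 3 members lay between 8.59 and 9.49, and those of heart against skeletal muscle -1.40 to -0.20 (miR-133a), -2.94 to -1.66 (miR-133b, call lost in 9 of 12) and -2.32 to -0.37 (miR-133c). miR-133a in lung and spleen had 0.78 to 1.48 (lost in 3 of 4), miR-133c at the older stages -0.84 to 0.93, and its stage range 1.02 to 1.86 (lost in 3 of 4). The log2 ratios ran from 2.87 to 4.71 (miR-133a to miR-1, lost in 4 of 8), -1.60 to -1.26 (miR-133b to miR-133a, lost in 4 of 8), -1.32 to -0.23 (miR-133c to miR-133a, passing without the adolescence heart) and 2.91 to 3.78 (miR-133b to miR-206, lost in 4 of 8).

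The number of miRNAs called moved as well. In striated muscle it was 44 (23 higher, 21 lower), but 111 with total reads (8 and 103) and 73 without miR-1 (14 and 59). In heart against skeletal muscle it was 24 (4 and 20), but 59 with total reads (57 and 2), 14 without miR-1 (9 and 5), 14 with DESeq2 size factors (8 and 6), 15 with no minimum and 6 to 30 with a stage or library left out. In lung and spleen it was 24 (13 and 11), with splits of 5 and 17, 4 and 19, and 5 and 16 under the 3 other scalings, 12 without lung and 15 to 18 with a stage left out. At the older stages it was 10 (3 and 7), but 4 with total reads (4 and 0), 8 without miR-1 (4 and 4), 22 with DESeq2, 10 with edgeR, 4 with a pseudocount of 10, 5 with no minimum, 4 without heart and skeletal muscle, 0 in limma without an organ term (17 at an unadjusted p below 0.05), and 0 to 11 with a stage left out (0 without juvenile, where 23 had an unadjusted p below 0.05). The stage test called 6, but 2 with no minimum, 17 without the 3 libraries and 0 to 6 with a stage left out (0 without juvenile, with 18 at an unadjusted p below 0.05). Depth limits miR-133b and miR-133c outside striated muscle, where counts of 0 to 10 reads are common.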
